A study of Mus musculus with 4 samples.

Results

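The 10 genes Osr1, Osr2, Twist1, Twist2, Snai1, Snai2, Zeb1, Zeb2, Prrx1 and Tcf21 encode transcription factors that mark mesenchymal cells. They were chosen by name: every probe set whose only platform gene symbol was one of these names was taken, which gave 25 of the 45037 probe sets that are not controls, or 10 of 18193 genes with a probe set of their own. Their transcripts were measured in unstimulated L929 cells, a clonal fibroblast line from mouse connective tissue, and in unstimulated NIH3T3 cells, a fibroblast line from mouse embryos. There were 2 Affymetrix mouse genome expression arrays per line, and no group was treated or carried an engineered allele that the labels name. The submitters compared a line sensitive to necrosis, L929, with a line sensitive to apoptosis, NIH3T3. With 1 line for each kind of death, the line and its kind of death cannot be told apart.

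These factors fall into families with shared ways of binding DNA. SNAI and ZEB proteins are zinc finger repressors that bind E-box sequences and silence epithelial genes such as the E-cadherin gene Cdh1, and the switch from epithelial to mesenchymal cells is often described by their levels. TWIST proteins and TCF21 are basic helix-loop-helix factors that bind E-boxes as dimers with E proteins, and ID proteins block such dimers by taking up the E proteins. PRRX1 is a paired-type homeodomain factor of limb and craniofacial mesenchyme, and the odd-skipped related proteins OSR1 and OSR2 are zinc finger factors of embryonic mesoderm and its connective tissue. Osr1 and Osr2, Twist1 and Twist2, Snai1 and Snai2, and Zeb1 and Zeb2 are paralogue pairs.

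Values are MAS5 signals in arbitrary units, scaled so that all arrays have the same trimmed mean, and are given for each array or as mean ± SD (n = 2 per line). As deposited, 3 arrays had trimmed means of 134.5 to 142.1, and NIH3T3 replicate 2 stood apart at 210.3. Across tested probe sets, which are not independent of each other, Pearson's r of scaled log2 signals was 0.982 for the L929 pair, 0.981 for the NIH3T3 pair and 0.835 to 0.843 for arrays of different lines. The fibroblast label was checked with 12 markers, of which 9 lay above a level of 17.3 on both L929 arrays and 11 on both NIH3T3 arrays. This level is the 40th percentile of all scaled signals and served as the filter on dim probe sets. The vimentin gene Vim measured 11769 ± 513 in L929 and 10036 ± 3277 in NIH3T3, and the collagen gene Col1a2 measured 7374 ± 447 and 6116 ± 1529. Other fibroblast markers differed widely. Thy1, a surface glycoprotein gene, measured 24 ± 8.5 in L929 against 2223 ± 41.8 (log2 difference -6.15, adjusted p = 1.1e-07), the proteoglycan gene Lum 18 ± 6.52 against 683 ± 192 (-4.72, with 1 L929 array above the level) and the receptor gene Pdgfra 283 ± 4.41 against 1661 ± 771 (-2.44). Fap was below the level on all 4 arrays. The receptor gene Pdgfrb went the other way, at 1022 ± 47.6 in L929 against 510 ± 33.4 (log2 difference 0.99). The fibroblast label was thus met by the collagen genes, Vim, S100a4, Ddr2 and Pdgfrb in both lines. Thy1, Dcn, Lum and Pdgfra met it far less in L929. Of markers of other cell types, Krt18, Krt19, Cldn4, Pecam1, Tek, Tie1, Ptprc, Itgam, Cd3e, Myf5, Myog, Adipoq and Lep lay below 17.3 on all 4 arrays. Epcam, Krt8, Cd68, Adgre1 and Sox10 lay above it on all 4 arrays, Kdr, Myod1 and Des on both L929 arrays and Cldn7 and Tubb3 on both NIH3T3 arrays. For Epcam this was probe set 1447899_x_at, whose suffix marks probes that may match other transcripts. The second Epcam probe set did not pass the filter. Whether the arrays of a line came from separate cultures is not stated in the labels, and p-values therefore rest on a spread that may be technical, and 2 arrays per line limit the precision.

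The lines differed in which family members were high. Osr1, Twist1, Zeb1 and Prrx1 were high in NIH3T3 and at or near background, or many times lower, in L929, while Snai2, Zeb2 and Osr2 were higher in L929. Twist2 was lower in L929 by a smaller factor, and Snai1 and Tcf21 were not called. A probe set was called when the Benjamini-Hochberg adjusted p of limma was under 0.05 and the fold was above 1.5, the thresholds in the submitters' design text. Folds of a probe set, where not written "at least", were taken after an offset of 8.01 was added to each signal. This makes folds of dim signals smaller than the ratio of the signals themselves. Of the 25 probe sets, 20 passed the filter and were tested, at least 1 for each of the 10 genes. Of these, 5 were called higher in L929, against 14.9% of all 27438 tested probe sets, and 11 lower, against 16.7%. Together 80% of the tested members were called, against 31.6% of all tested probe sets. The arrays of the lines did not overlap for 19 of the 20, against 69.9% of all tested probe sets. Probe sets of 1 gene, such as the 5 tested for Prrx1, are not independent of each other in these counts. With 1 probe set per gene, 3 of the 10 genes were called higher, against 17.2% of all 12676 genes, and 5 lower, against 17.6%, while 34.8% of all genes were called either way. At 4-fold or more, 4 were called lower and 1 higher, against 4.46% and 3.31% of all genes. The median log2 difference was -0.67 over the 10 genes and 0.01 over all genes. The filter was passed through NIH3T3 alone by 6 of the 20 probe sets and through L929 alone by 0, so these counts describe the members that passed and are not independent of their brighter line. In a bulk sample, fewer cells with a transcript and less of it per cell cannot be told apart.

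**Figure D1:**
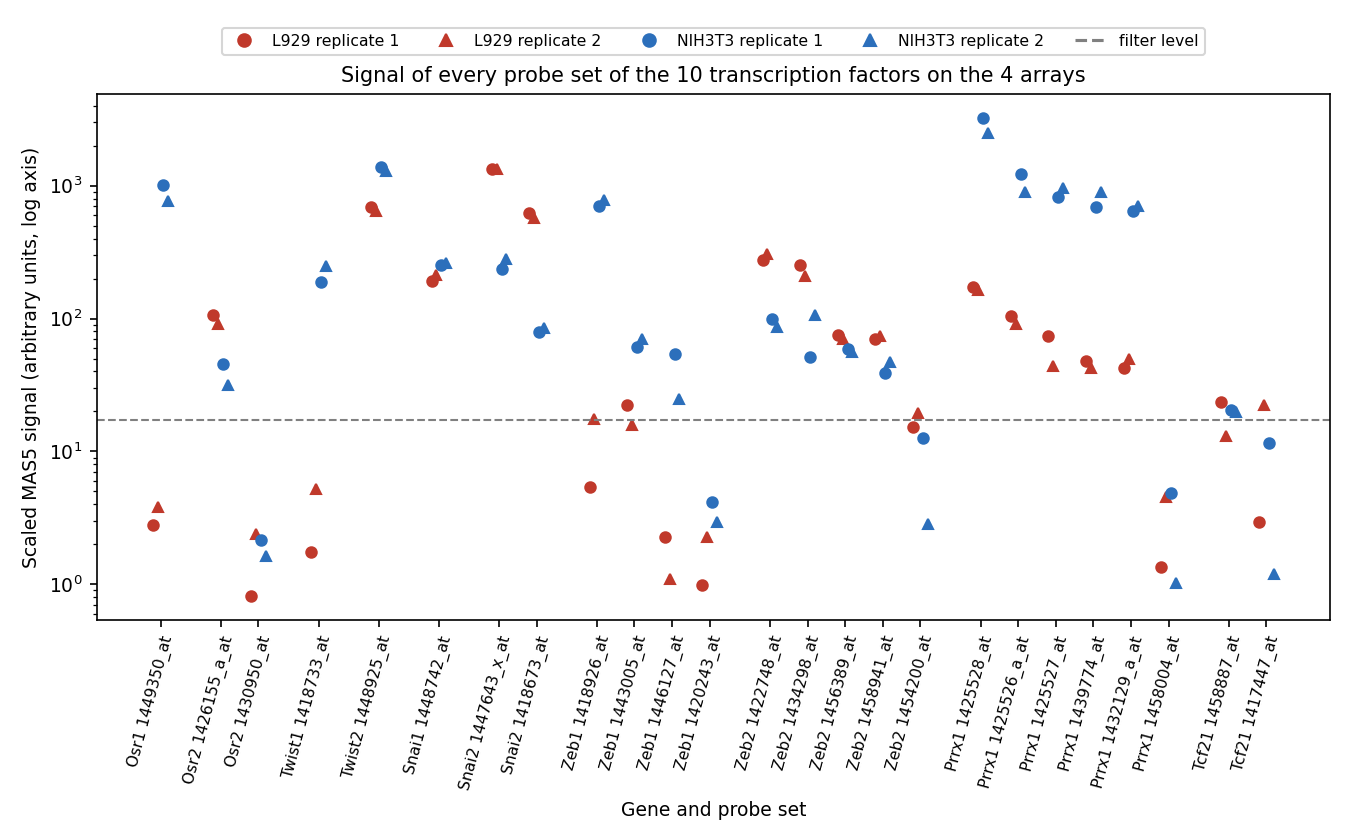
Scaled MAS5 signal on a log axis for each of the 25 probe sets, with 1 point per array: red for L929, blue for NIH3T3, circles for replicate 1 and triangles for replicate 2. The dashed line marks the filter level of 17.3. Osr1 and Twist1 lie below it on both L929 arrays and far above it on both NIH3T3 arrays, while the Snai2 points of L929 lie above those of NIH3T3.

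The odd-skipped pair moved in opposite directions. Osr1, an early marker of intermediate and lateral plate mesoderm, was read by a single probe set. Its signals were 2.79 and 3.83 in L929, and 1012 and 772 in NIH3T3. Both L929 values lay below the filter level and the lines did not overlap. Because L929 gave only a bound, Osr1 was at least 51.2-fold lower in L929 (log2 difference -6.30, SE 0.20, limma adjusted p = 2.1e-07), the largest difference among the members. Osr2, a factor of palate, tooth and limb mesenchyme, measured 106 and 91.6 in L929 and 45.6 and 31.8 in NIH3T3 with the probe set 1426155_a_at. With the offset added, Osr2 was 2.3-fold higher in L929 (log2 difference 1.20, SE 0.24, adjusted p = 0.0047). This call was lost without scaling of the arrays (log2 difference 0.96, adjusted p = 0.11). The second Osr2 probe set, 1430950_at, lay between 0.821 and 2.41 on the 4 arrays and was too dim to be tested. On the scale of this array, a signal is not comparable between probe sets, so the change in the ratio of paralogues between the lines is given and not the ratio itself. For this, signals below the filter level were set at it, so the change is a bound where a member is that dim. The ratio of Osr1 to Osr2 was at least 132-fold lower in L929, with both Osr1 signals of L929 set at the level. No test of the changes in ratio was made.

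The zinc finger and homeobox pair Zeb1 and Zeb2 was split in the same manner. Both encode repressors that recruit the CtBP corepressors to epithelial promoters. The brightest Zeb1 probe set, 1418926_at, measured 698 and 779 in NIH3T3 and 5.41 and 17.6 in L929. Both L929 values were far below both NIH3T3 values, and 1 of the 2 L929 arrays lay above the filter level (log2 difference -5.33, SE 0.28, adjusted p = 3.0e-06). The other 2 tested Zeb1 probe sets were dimmer and were called in the same direction. Probe set 1443005_at measured 22.3 and 15.9 in L929 and 60.7 and 69.8 in NIH3T3 (log2 difference -1.44, adjusted p = 0.0034), and again 1 L929 array was above the level. Probe set 1446127_at measured 2.28 and 1.09 against 53.8 and 24.6, at least 2.11-fold lower in L929 (adjusted p = 0.0019). The fourth, 1420243_at, stayed between 0.994 and 4.18 and was not tested.

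Zeb2 had 5 probe sets, which did not move by the same amount. The brightest, 1422748_at, measured 274 and 305 in L929 and 98.7 and 86.5 in NIH3T3, a 2.96-fold excess in L929 (log2 difference 1.57, SE 0.15, adjusted p = 7.0e-05). A second, 1434298_at, measured 252 and 211 against 51.3 and 106 and was also called (log2 difference 1.54, SE 0.28, adjusted p = 0.003). Its NIH3T3 arrays stood apart from each other but did not reach the L929 arrays. Probe set 1458941_at measured 69.9 and 73.5 against 39.2 and 47.1 and missed the threshold (log2 difference 0.64, 95% interval 0.12 to 1.17, adjusted p = 0.055). Probe set 1456389_at measured 74.7 and 70.6 against 58.9 and 56 and was not called (log2 difference 0.30, 95% interval -0.18 to 0.78, adjusted p = 0.3). In all 4 tested Zeb2 probe sets the L929 arrays lay above the NIH3T3 arrays. The fifth, 1454200_at, ranged from 2.85 to 19.6 and was not tested. Between the brightest probe sets of the pair, the ratio of Zeb1 to Zeb2 was at least 133-fold lower in L929, with 1 L929 signal of Zeb1 set at the filter level.

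Of the SNAIL pair, Snai2 was called higher in L929 and Snai1 was not called. Snai2 encodes SLUG, a repressor found in neural crest and mesoderm, and had 2 probe sets. The brighter, 1447643_x_at, measured 1328 and 1333 in L929 and 235 and 280 in NIH3T3, 5.06-fold higher in L929 (log2 difference 2.34, SE 0.12, adjusted p = 2.2e-06). Its suffix marks a probe set of which some probes may match other transcripts. The other, 1418673_at, carries no such mark and measured 623 and 576 against 79.7 and 84.4, a 6.75-fold excess (log2 difference 2.75, SE 0.12, adjusted p = 1.1e-06). Snai1, which encodes SNAIL, measured 191 and 212 in L929 and 254 and 261 in NIH3T3. The arrays did not overlap and L929 was the lower line, but the 1.27-fold difference was not called (log2 difference -0.34, 95% interval -0.63 to -0.06, adjusted p = 0.056). The ratio of Snai1 to Snai2 was 6.64-fold lower in L929 (log2 -2.73), with all signals above the filter level. Its centred log2 values were -1.44 and -1.29 in L929 and 1.47 and 1.26 in NIH3T3.

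**Figure D2:**
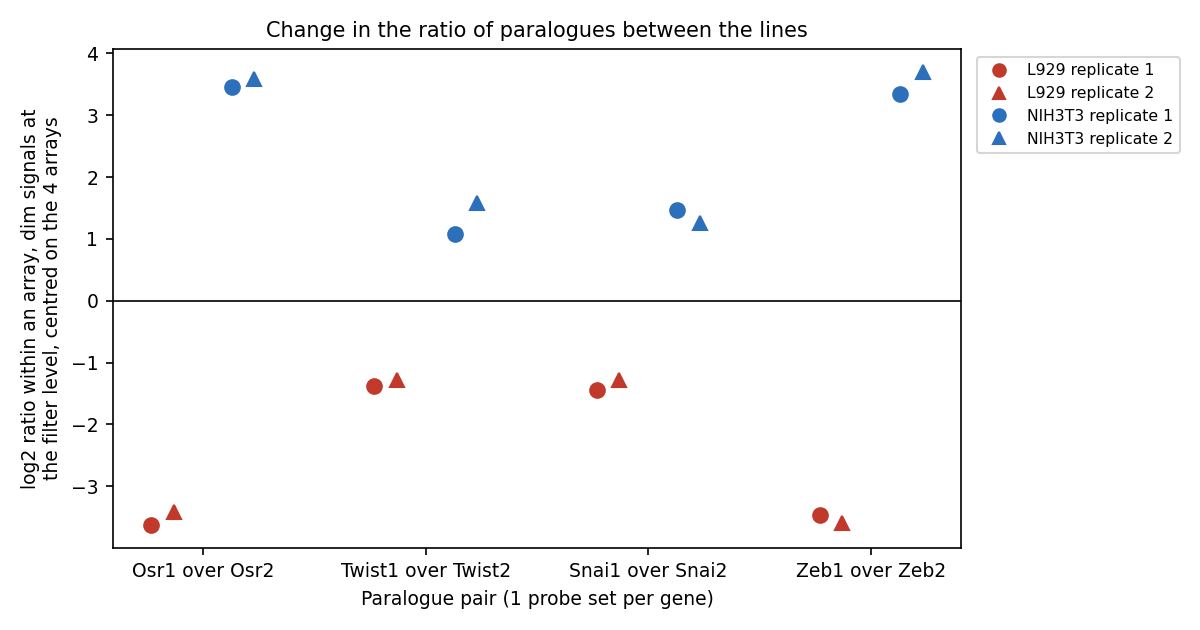
Log2 ratio of the members of each paralogue pair on each array, centred on the mean of the 4 arrays so that the change between lines can be read and the level cannot. Signals below the filter level were set at it. Red points are L929 and blue points NIH3T3, with circles for replicate 1 and triangles for replicate 2. The change is -2.73 for Snai1 over Snai2, and at least as large as -7.05 for Osr1 over Osr2, -2.66 for Twist1 over Twist2 and -7.05 for Zeb1 over Zeb2, which are bounds.

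Both TWIST genes were lower in L929, by unequal amounts. Twist1, a factor of cranial and limb mesenchyme, measured 1.76 and 5.2 in L929 and 190 and 250 in NIH3T3. It lay below the filter level on both L929 arrays and was at least 12.6-fold lower there (log2 difference -4.31, SE 0.28, adjusted p = 9.4e-06). Twist2, also known as Dermo1 for its place in the dermis, was bright in both lines, at 690 and 644 in L929 and 1383 and 1284 in NIH3T3. It was 1.99-fold lower in L929 (log2 difference -0.99, SE 0.11, adjusted p = 1.7e-04), with no overlap between the lines. Their 95% intervals, -4.96 to -3.67 for Twist1 and -1.24 to -0.74 for Twist2, did not overlap, but this is not a test of unequal change. The Twist1 interval leaves out the choice of offset, which moved the difference to -5.73 (offset of 1) or -3.59 (doubled offset). The ratio of Twist1 to Twist2 was at least 6.32-fold lower in L929, with both Twist1 signals of L929 set at the filter level.

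Prrx1 gave the broadest record, with 6 probe sets. The brightest, 1425528_at, measured 172 and 165 in L929 and 3222 and 2483 in NIH3T3, 16-fold lower in L929 (log2 difference -4.00, SE 0.14, adjusted p = 2.7e-07). Probe set 1425526_a_at measured 105 and 90.8 against 1218 and 902, and 1425527_at measured 73.5 and 44.1 against 820 and 962. Probe set 1439774_at measured 48.1 and 42.6 against 690 and 903, and 1432129_a_at measured 42.6 and 50 against 644 and 706. All 5 of these were called lower in L929, with log2 differences between -4.00 and -3.32, and all stayed above the filter level in both lines. Prrx1 signal in L929 was thus many times lower and still above the filter level, whereas Osr1 and Twist1 lay below that level. Since the level is a percentile of all signals, it does not settle whether a transcript was present. The sixth probe set, 1458004_at, lay between 1.03 and 4.87 and was not tested. The 6 probe sets read 1 gene, so they are not replicates of the comparison.

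Tcf21, a helix-loop-helix factor of epicardial, lung and kidney mesenchyme, was dim in both lines. Probe set 1458887_at measured 23.6 and 13.1 in L929 and 20.6 and 19.8 in NIH3T3, and the lines overlapped. It was not called (log2 difference -0.12, 95% interval -0.85 to 0.60, adjusted p = 0.79), and the difference was 0.16 without L929 replicate 2. Probe set 1417447_at measured 2.92 and 22.3 against 11.5 and 1.2 and was not tested. These values lie too near the level of dim probe sets to order the lines.

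**Figure D3:**
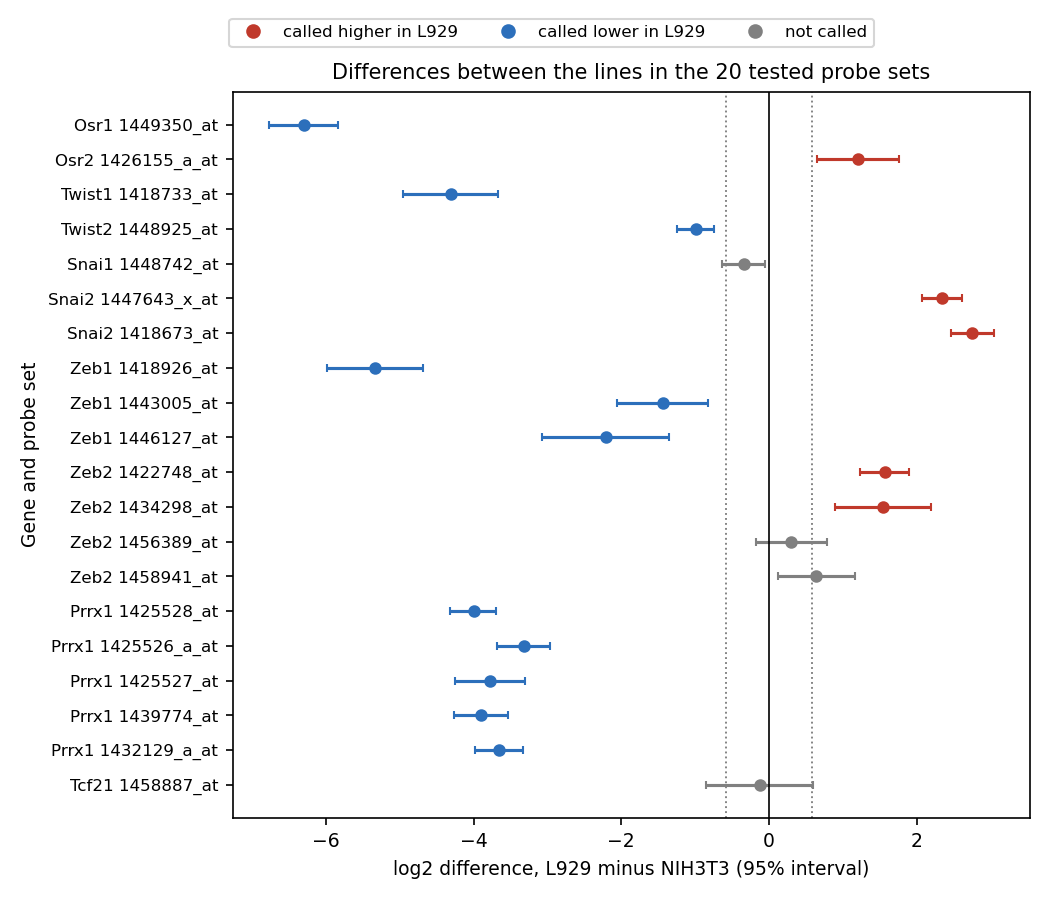
Log2 difference, L929 minus NIH3T3, of the 20 tested probe sets with the 95% interval of the limma fit. Blue points were called lower in L929, red points higher and grey points not called, and the dotted lines mark a fold of 1.5. The 5 Prrx1 probe sets lie between -4.00 and -3.32, while the 4 Zeb2 probe sets range from 0.30 to 1.57.

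Promoter windows of 250 bases before the gene start were read from RefSeq sequences of build GRCm38.p6. They cover 6 of the 10 genes with 9 windows. Zeb1 was left out here, and Osr1, Osr2 and Snai2 had no window in the source. Of the 6 genes, Twist1, Twist2 and Prrx1 are shown because they were called lower in L929, by very different amounts. The capitals mark CpG dinucleotides, the sites of DNA methylation. The Twist1 window lies at chr12:33957421-33957670 on the plus strand, the Twist2 window at chr1:91801211-91801460 on the plus strand and the Prrx1 window at chr1:163313651-163313900 on the minus strand.
Twist1: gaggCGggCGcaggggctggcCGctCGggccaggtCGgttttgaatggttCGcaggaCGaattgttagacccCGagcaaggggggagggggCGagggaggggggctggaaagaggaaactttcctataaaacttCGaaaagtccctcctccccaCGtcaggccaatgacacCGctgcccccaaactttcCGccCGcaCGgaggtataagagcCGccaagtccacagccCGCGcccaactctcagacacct
Twist2: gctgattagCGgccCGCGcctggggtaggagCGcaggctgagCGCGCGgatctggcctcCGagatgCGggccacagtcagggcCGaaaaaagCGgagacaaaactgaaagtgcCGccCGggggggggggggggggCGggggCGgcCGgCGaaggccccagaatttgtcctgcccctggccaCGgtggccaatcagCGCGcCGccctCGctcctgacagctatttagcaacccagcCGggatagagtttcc
Prrx1: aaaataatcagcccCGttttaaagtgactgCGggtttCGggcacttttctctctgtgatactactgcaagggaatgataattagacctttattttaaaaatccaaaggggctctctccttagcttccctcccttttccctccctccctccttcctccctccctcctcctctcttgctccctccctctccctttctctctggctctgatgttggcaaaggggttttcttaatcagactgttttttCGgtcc
The window of Twist1 held 18 CpGs, that of Twist2 held 23 and that of Prrx1 held 4, against a median of 6 over all 32851 windows of this length. Their GC content was 62.4%, 68.8% and 47.6%, against a median of 52.4%. DNA methylation was not measured, and a link between promoter composition and the differences between the lines was not tested.

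Since SNAI, ZEB, TWIST and TCF21 proteins bind E-boxes, the windows were searched for CANNTG, which reads the same on both strands, and for its forms CAGGTG and CACCTG, which are each other's reverse complement and the forms best known for SNAI and ZEB proteins. The only window of the 9 with a match was that of Snai1, at chr2:167537945-167538194 on the plus strand, where CACCTG began 126 bases before the gene start and is shown in capitals.
Snai1: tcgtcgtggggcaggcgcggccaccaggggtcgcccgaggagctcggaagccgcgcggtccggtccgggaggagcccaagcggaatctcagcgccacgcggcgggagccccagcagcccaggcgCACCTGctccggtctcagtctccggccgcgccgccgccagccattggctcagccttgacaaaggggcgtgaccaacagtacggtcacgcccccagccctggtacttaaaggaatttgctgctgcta
CANNTG occurred in 66.2% of all windows and CAGGTG or CACCTG in 17.2%. The 8 windows without a match were those of Twist1, Twist2, Prrx1, Tcf21 and the 4 starts of Zeb2, of which 2 overlap. Zeb1 was left out, so the search does not cover it. A match or its lack describes these letters only and says nothing on binding.

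Among genes of the proteins that work with these factors, some were called in each direction and most were not called. Of 9 genes for dimer partners of TWIST and TCF21 and for ID inhibitors, 8 were tested, and 1 was called higher in L929 and 2 lower, or 37.5% against 34.8% of all genes. Id1, an inhibitor that takes up E proteins, was 2.58-fold higher in L929, with 1039 ± 29.1 against 401 ± 68.8 (log2 difference 1.37, adjusted p = 8.6e-05). Its relative Id4 measured 1.27 ± 0.198 against 76.1 ± 2.83, at least 4.41-fold lower in L929 (adjusted p = 5.4e-05). The E protein gene Tcf4 measured 381 ± 29.5 against 650 ± 74.5, 1.69-fold lower in L929 (adjusted p = 0.0015), a call lost without scaling (log2 difference -1.04, adjusted p = 0.068). The other E protein genes Tcf3 and Tcf12 stood at log2 differences of 0.10 and 0.34 and were not called, and the tested probe sets of Tcf12 ranged from -0.46 to 0.43. The median log2 difference of the list was 0.03.

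Of 16 genes for corepressors of SNAI and ZEB, 15 were tested, with 1 higher in L929, 3 lower and 11 not called, or 26.7% called against 34.8% of all genes. Wtip, a LIM protein of the AJUBA family that binds SNAIL-type repressors, was at least 19.8-fold lower in L929, with 0.92 ± 0.222 against 341 ± 14.2 (log2 difference -5.29, adjusted p = 1.1e-06). Its relative Ajuba stood at -0.23 (575 ± 65.5 against 672 ± 42) and was not called. Rcor1, the scaffold of the CoREST complex, was 2.25-fold lower (240 ± 4.67 against 549 ± 21.7, adjusted p = 6.3e-05), and the histone methyltransferase gene Ehmt2 was 1.61-fold lower (adjusted p = 0.0027), a call lost without NIH3T3 replicate 1 (log2 difference -0.55). The ZEB corepressor gene Ctbp2 was 1.74-fold higher in L929 (884 ± 97.5 against 506 ± 77.9, adjusted p = 0.0021). The count of higher genes was 2 without L929 replicate 2 or without NIH3T3 replicate 2, and 0 without scaling. The median of the list was 0.11.

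Of 11 genes that control the stability or activity of SNAI proteins, 10 were tested. Of these, 1 was higher, 1 lower and 8 not called, or 20% called against 34.8% of all genes. The kinase gene Gsk3b, whose product marks SNAIL for degradation, measured 389 ± 29.7 against 406 ± 24.5 (log2 difference -0.06, adjusted p = 0.71). The ubiquitin ligase gene Fbxo11 measured 261 ± 51.7 against 500 ± 120, 1.88-fold lower in L929 (adjusted p = 0.0051). Fbxl5, another such gene, was 1.53-fold higher (334 ± 56.6 against 216 ± 40.2, adjusted p = 0.019), which left 0 higher genes without L929 replicate 1 or without NIH3T3 replicate 1, where Fbxl5 was not called. The median of the list was -0.08.

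Other transcription factors of mesoderm and limb included genes called in both directions. Of 39 such genes 36 had a probe set of their own and 22 were tested. Of these, 11 were called lower, 3 higher and 8 not, or 63.6% called against 34.8% of all genes. Prrx2, the paralogue of Prrx1, was at least 19.5-fold lower in L929, where it measured 2.9 and 2.15 against 379 and 300 (log2 difference -5.03, adjusted p = 1.8e-06), in the same direction as Prrx1. The forkhead genes Foxf2 and Foxc1 were lower too. Foxf2 measured 18.7 ± 0.0471 against 210 ± 29.7, an 8.12-fold difference with the offset added (adjusted p = 1.5e-05). Foxc1 was at least 5.98-fold lower (8.66 ± 7.9 against 103 ± 8.42, adjusted p = 4.2e-04). Klf4, a zinc finger factor, was 4.6-fold lower in L929, with 165 ± 7.18 against 789 ± 5.72 (adjusted p = 1.8e-06). The higher genes were the homeobox genes Msx1, Lmx1b and Shox2, at 2.15-fold, at least 1.57-fold and 1.64-fold. The other tested probe set of Msx1 differed by 0.43, under the fold threshold, and that of Shox2 by 1.31. Only 1 gene was higher without NIH3T3 replicate 1 and 0 without scaling, and Lmx1b, dim at 27.3 ± 5.73 against 9.27 ± 3.62, kept its call in none of the 4 fits that left out 1 array. Msx1 was not called without L929 replicate 2 or without NIH3T3 replicate 1. The median of the tested genes was -0.79, against 0.01 over all genes. Genes such as Prrx2 and Foxc1 passed the filter through NIH3T3 alone, and Lmx1b through L929 alone. The counts and the median are thus not independent of the brighter line.

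Of 32 epithelial genes that SNAI and ZEB proteins are known to repress, 18 were too dim to be tested. The other 14 were tested, with 0 higher and 1 lower by limma, or 7.14% called against 34.8% of all genes. At an unadjusted limma p under 0.05, 1 was higher and 2 were lower. Cdh1 measured 9.96 and 19.9 in L929 and 4.42 and 16.7 in NIH3T3, and with only 1 of the 4 arrays above the filter level it was not tested. Among the brighter genes, the polarity gene Crb3 measured 124 ± 14.7 against 98.2 ± 31 and the junction gene Jup 73.2 ± 26.6 against 103 ± 0.897, and neither was called. Epcam, an epithelial adhesion gene, measured 58.9 ± 2.18 against 70.8 ± 14.4 (log2 difference -0.22, adjusted p = 0.48). The only tested Epcam probe set may in part match other transcripts. The gene called was Patj, which encodes a scaffold of tight junctions and was at least 2.52-fold lower in L929, with 5.8 ± 2.15 against 43.7 ± 6.47 (adjusted p = 0.0013). The count of lower genes was 3 without L929 replicate 2, 2 without NIH3T3 replicate 2 or without scaling, and 0 with a stricter filter. Over the 7 epithelial markers the summed signal was 129 and 147 in L929 and 152 and 173 in NIH3T3. These sums did not overlap, were lower in L929 and rested mostly on Epcam and Krt8. The log2 differences of the tested Krt8 probe sets ranged from -1.33 to 0.02. A link of these sums to Zeb1, Zeb2 and Snai2 was not tested. The median of the 14 tested genes was -0.04.

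Genes of the mesenchymal programme ranged from alike in both lines to at or near background in L929. Of 25 genes 22 were tested, with 12 lower in L929, 1 higher and 9 not called, or 59.1% called against 34.8% of all genes. The N-cadherin gene Cdh2 was at least 54.9-fold lower in L929, where it measured 0.881 and 5.88 against 819 and 1097 (adjusted p = 6.3e-07). The matrix gene Tnc was at least 158-fold lower, with 5.28 ± 6.07 against 2734 ± 349 (adjusted p = 3.5e-07). A second tested Tnc probe set stood at -3.49. The proteoglycan gene Dcn measured 19 and 2.78 against 1382 and 1572, with 1 L929 array above the filter level, and its log2 difference of -6.44 became -7.10 without L929 replicate 1 and -5.78 without L929 replicate 2. Tagln, which encodes an actin-binding protein, was at least 58.9-fold lower, with 3.88 ± 1.5 against 1018 ± 71.2 (adjusted p = 1.1e-07). Other called genes stayed above the filter level in L929, such as the protease gene Mmp2 (79.9 ± 10.5 against 3032 ± 233) and the receptor gene Axl (298 ± 29.8 against 2508 ± 167). Pdgfrb, a growth factor receptor gene, was 1.99-fold higher in L929 (1022 ± 47.6 against 510 ± 33.4, adjusted p = 1.7e-04), a call lost without scaling. Vim stood at a log2 difference of 0.27 (adjusted p = 0.49) and was called higher without NIH3T3 replicate 1 (0.61, adjusted p = 0.0013), where the list held 4 higher genes. The median of the list was -1.24. Genes such as Cdh2, Tnc and Tagln passed the filter through NIH3T3 alone, and Mmp9 through L929 alone. The counts and this median are thus not independent of the brighter line.

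**Figure D4:**
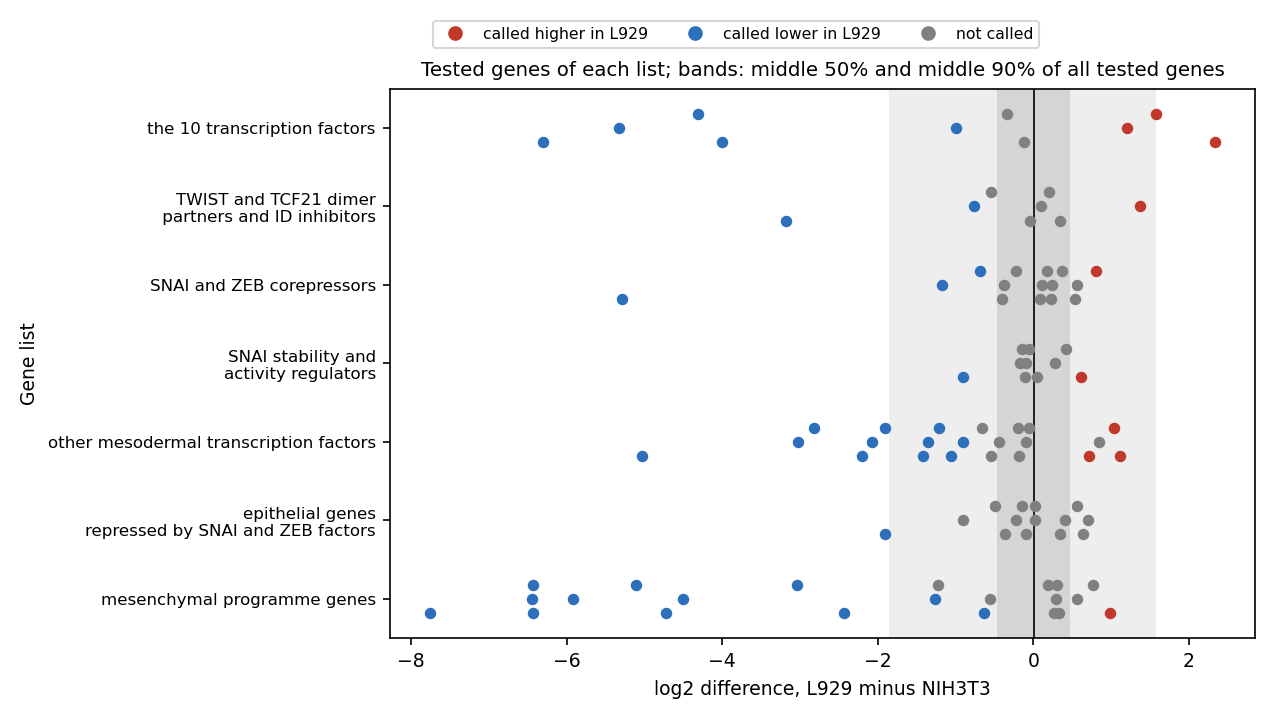
Log2 difference, L929 minus NIH3T3, of each tested gene, with 1 point per gene and 1 row for the 10 transcription factors and for each of the 6 other lists. Points are red where called higher in L929, blue where called lower and grey where not called, and the bands hold the middle 50% (-0.46 to 0.46) and the middle 90% (-1.84 to 1.56) of all 12676 tested genes. The epithelial genes cluster around 0. Of 22 tested genes in each list, 12 mesenchymal programme genes and 11 other mesodermal factors are called lower, against 17.6% of all tested genes.

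Markers of other cell types moved with the line in part. The summed signal of the 4 myogenic markers was 157 and 216 in L929 and 34.4 and 68.9 in NIH3T3, mostly through the desmin gene Des (146 ± 39.8 against 29.1 ± 28.5, log2 difference 2.28, adjusted p = 0.0071), whose other tested probe set differed by 0.09. Myf5 and Myog were below the filter level on all 4 arrays. The summed signal of 5 haematopoietic markers was lower in L929, at 71.9 and 78.6 against 106 and 126, and the macrophage gene Cd68 was called lower there (31.6 ± 1.42 against 65.4 ± 1.76, log2 difference -0.89, adjusted p = 0.018). That of 3 neural markers was 53.3 and 57.4 against 92.5 and 88.6, and the tubulin gene Tubb3 was at least 1.88-fold lower in L929 (2.45 ± 0.608 against 34.9 ± 18.3, adjusted p = 0.0032). The sums of 5 endothelial markers (57.1 and 71.7 against 79 and 48.4) and of 2 adipocyte markers (7.48 and 18.1 against 8.85 and 15.5) overlapped. The summed fibroblast markers, 35668 and 37261 against 40147 and 31062, overlapped too, but are carried by Vim, S100a4 and Col1a2. They do not show the differences in Thy1, Dcn, Lum and Pdgfra, lower in L929, or in Pdgfrb, higher there. The part of these differences in the results above was not tested.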

How the data were processed

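Each deposited value is an intensity of 1 probe set on 1 array, a MAS5 signal per the submitters' processing notes. Which MAS5 version and scaling target the authors used is not given in the sources used here. Gene names came from the platform annotation. Of 45037 probe sets that are not controls, 34945 had a unique symbol, 932 several and 9160 none. A gene table of assembly GRCm38.p6 held 34741 of the unique names and changed 0.

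Each array was scaled to a common mean that leaves out 2% of probe sets at each end. An offset of 8.01, the 25th percentile, was added before log2, so fold changes of dim genes are understated. A probe set entered the test where a line exceeded 17.3 on both its arrays. The counts and medians of the lists, like those of the members, are therefore not independent of the brighter line. The lines were compared in limma 3.58.1 (lmFit, then eBayes with a variance trend; R 4.3.3), using all 4 arrays and adjusting over all tested probe sets. If neither array of a line reached 17.3, the fold is a bound against that level, written "at least". A gene in a list is read by its tested probe set with the highest mean. The procedure was also run on simulated data, with changes placed only in probe sets of above-median signal. That run did not cover members near background in a line and is no support for their calls.

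The members, lists, tests and alternatives were chosen with earlier results of these data known. All member probe sets are named, and of each list up to 4 called genes per direction, with Cdh1, Epcam, Cdh2, Vim and most of the cell type markers. The planned nearest genes are left out, since their distance compares levels of different probe sets. Other list genes named (Gsk3b, Ajuba, Tcf3, Tcf12, Crb3, Jup, Mmp2 and Axl) were chosen after their values were seen. An exact permutation test of 2 against 2 arrays cannot go below p = 0.333, so none was used.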

Additional observations from a re-analysis of the deposited data

How the results depend on the processing

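Over 15 alternatives, 17 of the 20 tested member probe sets kept their direction and call wherever they were tested. Osr2 lost its call without scaling, the Zeb2 probe set 1458941_at was called higher with quantile normalization, median scaling, a stricter filter or no variance trend (log2 differences 0.64 to 0.74), and the Tcf21 difference ranged from -0.41 without L929 replicate 1 to 0.16 without L929 replicate 2. Without any 1 array, 5 member probe sets were higher and 11 lower, where the lone array of a line is assumed to vary like the other line. With the replicate block the counts were also 5 and 11. The replicate numbers are only shared names, and deviations of same-numbered arrays correlated with r = 0.014, so the lines were not treated as paired. With 1 probe set per gene the counts were 3 and 5, because fewer probe sets entered. An offset of 1 moved Osr1 to -7.69, Twist1 to -5.73 and Zeb1 1418926_at to -6.08, and a doubled offset moved Osr1 to -5.54 and Twist1 to -3.59, since the offset acts on dim signals. Zeb1 1446127_at moved to -3.84 and -1.59. These and the list genes that moved as far kept their calls.

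Without scaling, the median log2 difference of all probe sets moved from -0.01 to -0.28, and 1484 probe sets were higher and 3722 lower, against 4091 and 4582. Then 1 dimer partner gene was lower, 2 epithelial genes were lower, and 0 corepressor, 0 stability, 0 other mesodermal and 0 mesenchymal programme genes were higher. With median scaling 3 corepressor, 1 epithelial and 2 mesenchymal programme genes were higher. With quantile normalization 1 epithelial gene was higher. Without a variance trend 1 epithelial gene and 0 stability genes were higher, and with a stricter filter 0 epithelial genes were lower. Leaving out 1 array, the higher counts ranged from 1 to 2 for corepressors, 0 to 1 for stability genes, 1 to 3 for other mesodermal factors and 1 to 4 for the mesenchymal programme, and the lower count from 1 to 3 for epithelial genes. Vim turned to -0.02 without scaling and -0.07 without NIH3T3 replicate 2 (0.61 without NIH3T3 replicate 1), and Ddr2 to -0.20 without scaling and -0.02 without L929 replicate 2 (0.20 without L929 replicate 1). Beyond what is said, the causes were not tested. Signals near background and 2 arrays per line limit the dim members.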
